A study of Mus musculus with 16 samples.

Results

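The proteasome genes are described here in mouse basal epithelial cells captured from the limbus, where the cornea borders the conjunctiva, and from the cornea itself. They were taken by name, as every probe set annotated to 1 protein-coding gene whose symbol begins with Psma, Psmb, Psmc, Psmd or Psme and a digit. This gave 44 of the 18194 genes on the array, read by 91 of its 45037 probe sets. Of these, 42 encode proteasome subunits, assembly factors or activators. The other 2, Psmc3ip and Psme3ip1, encode proteins that bind a subunit or activator and were kept apart from the counts. Both groups came from the same 8 wild-type mice: 8 limbal captures and 8 corneal captures, each of 300 basal cells cut out by laser microdissection, with the RNA amplified and hybridised to 1 Affymetrix Mouse430_2 array. The labels give no strain, age or treatment. A capture is a pool of cells chosen by position, so fewer cells of a type and less RNA per cell cannot be told apart in these data.

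The proteasome is the main machine by which cells break down proteins tagged with ubiquitin. Its core particle, the 20S, is a barrel of alpha rings (Psma genes) around beta rings (Psmb genes), and the catalytic sites lie on the beta subunits Psmb5, Psmb6 and Psmb7. The 19S cap recognises and unfolds substrates, with a ring of ATPases (Psmc genes) and a set of non-ATPase subunits (most Psmd genes). In immune cells, and under interferon in many others, the inducible subunits Psmb8, Psmb9 and Psmb10 replace Psmb5, Psmb6 and Psmb7 to form the immunoproteasome, and Psme1 and Psme2 encode the activator that works with it in antigen presentation. Of the 5 immunoproteasome genes 4 could be read. The probe set for Psme2 is annotated to a second gene as well and was not used.

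The upstream sequences of Psmb5 and of the inducible genes Psmb8 and Psmb9 are shown because these genes form the contrast between the constitutive and the immunoproteasome. Each is the 150 bases before the annotated start, read 5′ to 3′ on the strand of the gene, from RefSeq on GRCm38.p6. The positions are chr14:54617996-54618145 (minus strand) for Psmb5, chr17:34198045-34198194 (plus strand) for Psmb8 and chr17:34187331-34187480 (minus strand) for Psmb9. Capitals mark TGACNNNGC, the core of the element bound by Nfe2l1, a transcription factor of proteasome genes, or CCAAT, on either strand.
Psmb5: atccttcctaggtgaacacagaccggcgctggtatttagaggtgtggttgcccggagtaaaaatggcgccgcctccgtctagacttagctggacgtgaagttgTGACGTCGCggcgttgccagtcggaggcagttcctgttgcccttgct
Psmb8: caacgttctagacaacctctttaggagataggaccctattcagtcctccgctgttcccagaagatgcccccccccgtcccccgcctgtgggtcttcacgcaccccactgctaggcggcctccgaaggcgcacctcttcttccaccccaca
Psmb9: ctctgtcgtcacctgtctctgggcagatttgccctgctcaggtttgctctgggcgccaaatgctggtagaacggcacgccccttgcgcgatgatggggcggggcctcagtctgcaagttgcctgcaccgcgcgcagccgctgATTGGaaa
Of the 42 proteasome genes, 35 had an annotated upstream sequence of 250 bases that could be searched. TGACNNNGC was found on either strand in 5 of these 35 (14.3%), which were Psmb5, Psmb6, Psmc6, Psmd9 and Psmd12, against 10.4% of the 21263 upstream sequences of all protein-coding genes. CCAAT was found in 14 of the 35, against 35.4% of all. The interferon-stimulated response element was searched on either strand as a pair of GAAA repeats with a spacer of 2 bases. It was found in 3 of the 35 (8.57%), Psmb3, Psmd4 and Psmd9, against 2.96% of all. Of the 4 immunoproteasome genes read here, 0 held it. A proteasome gene was counted if any of its upstream sequences held the letters, while the shares of all are by sequence, with 21263 for 17492 genes. The shares therefore differ in unit. These matches are descriptions of the letters and say nothing on whether a factor binds there. Psmb8 and Psmb9 lie next to each other on chromosome 17 with 1 protein-coding gene between them, Tap1, which encodes a subunit of the peptide transporter of antigen presentation.

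The arrays differed by the day on which they were scanned. Day 1 holds mice 1 and 2, day 2 holds mice 3, 4 and 5, and day 3 holds mice 6, 7 and 8. The median correlation of arrays within a day, over probe sets, was 0.48 for the first, 0.24 for the second and 0.81 for the third, so the arrays of day 3 were most alike. Krt12, the keratin of corneal epithelium, had a signal of 36932 to 227253 on the limbal arrays and of 58785 to 307362 on 7 corneal arrays, but of 948.4 on the corneal array of mouse 5. That array therefore goes against its label as a capture of corneal epithelium. For most genes named below, the estimate without mouse 5 or without scan day 2 is given where it moved by over 1.5 times. Psma2, Psmc1, Psmd14, Psme4, Tap1 and genes given only by a range carry no such estimate, and theirs may have moved as far.

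No proteasome gene passed the test for a difference between limbal and corneal captures. Values are log2(signal + 89.4), a gene was read from its brightest probe set that passed a filter on low values, and differences are limbal minus corneal with the standard error of limma's fit, which has the mouse as a term. Of the 44 genes 41 passed the filter, 39 of them proteasome genes. At an adjusted p of 0.05 over all probe sets limma called 0 of the 39, and the lowest adjusted p was 0.62. Over all 13570 genes tested the call was as rare, with 18 called, or 0.133%, of which 0.125% were higher and 0.00737% lower. That number dropped to 0 when mouse 2 was left out, to 4 for mouse 1, 6 or 7 and to 8 for mouse 3, and it was 45 when mouse 8 was left out. At an unadjusted p under 0.05 there were 3 of the 39, against 6.71% of all genes: 1 was higher (4.10% of all) and 2 were lower (2.62% of all). An estimate of over 1 log2 unit in size was seen in 2 of the 39, Psmc3 and Psme3, against 4.70% of all genes. None of the 39 had the same sign in all 8 mice, against 1.19% of all genes, and 13 had the same sign of the mean difference on all 3 scan days, against 26.2% of all genes. The median difference of the 39 was -0.16, beside 0.01 for all genes, and it was -0.31 without mouse 5, -0.017 without mouse 4 and -0.0046 without scan day 2.

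A p that misses the threshold does not show that levels were alike, and the intervals say how far they could differ. The half-width of the 95% interval of the difference had a median of 0.88 over the 39 genes. The whole interval lay within 1 log2 unit of 0, a 2-fold change either way, in 8 of the 39 (20.5%). This was the case for 17.0% of all genes. The interval lay within 2 log2 units in 13067 of all 13570 genes, and in 37 of the 39. The 2 genes whose interval reached past 2 log2 units were Psmc3 and Psme3, named after their values were seen.

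**Figure D1:**
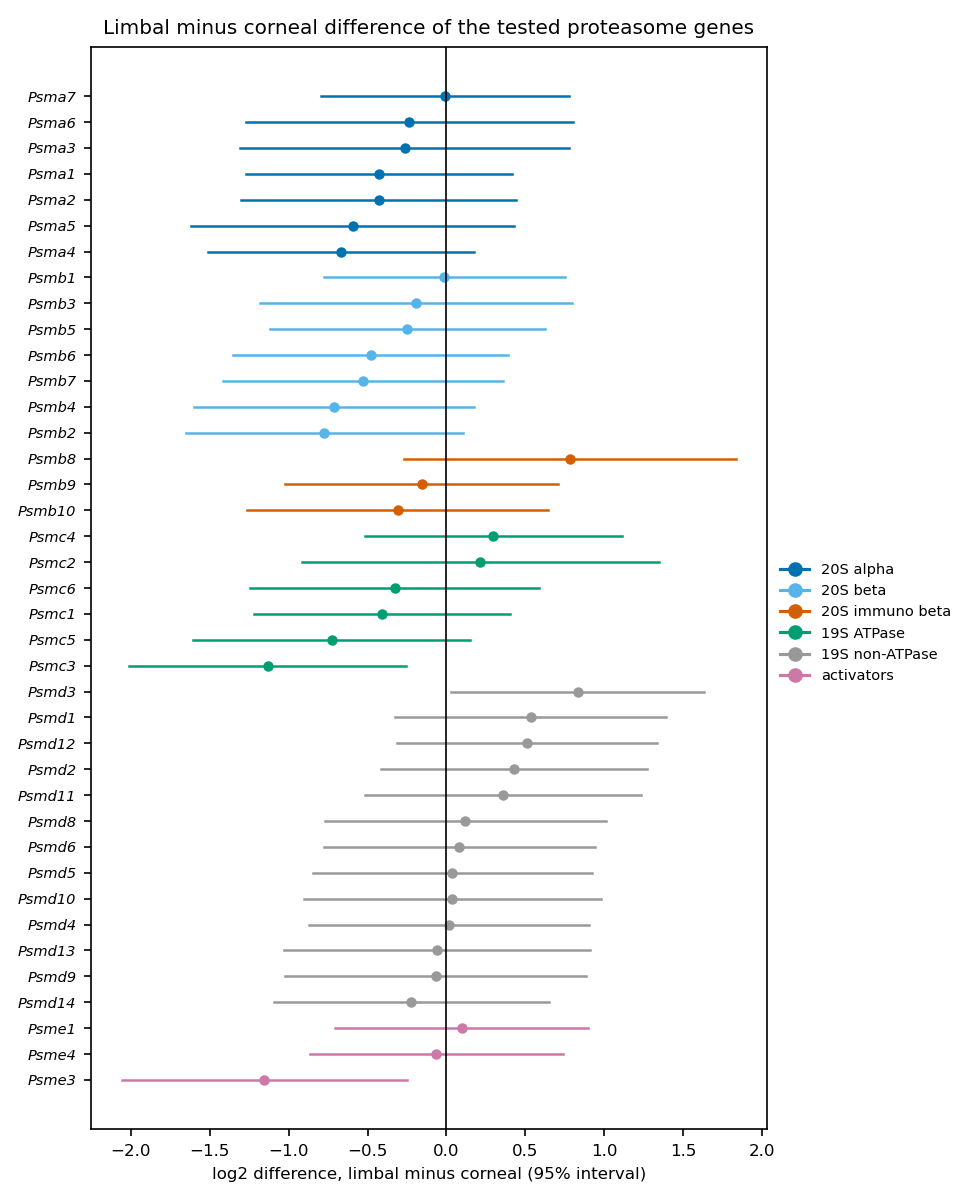
Limbal minus corneal difference (log2, horizontal axis) of the 39 tested proteasome genes, with points for limma's estimate, bars for its 95% interval and colours for the part of the proteasome. All 14 points of the constitutive 20S subunits lie below 0 and 10 of the 13 points of the Psmd genes lie above it, with 0 genes past the adjusted threshold. The Psmd genes are labelled 19S non-ATPase, and include the assembly factor genes Psmd5, Psmd9 and Psmd10.

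The signs of the estimates differed between the parts of the proteasome. All 7 alpha subunits and all 7 constitutive beta subunits had negative estimates, with medians of -0.43 and -0.48 and a lowest value of -0.77. Of the 13 tested Psmd genes, called the non-ATPase genes here, 10 had positive estimates, between 0.02 and 0.83, and the median of all 13 was 0.08. They include Psmd5, Psmd9 and Psmd10, which encode assembly factors of the cap, at 0.04, -0.07 and 0.04. Among all genes 49.1% had a negative estimate. None of these genes passed the test, and no test of the split was made. The counts varied between scan days. Negative core genes numbered 7, 12 and 11 of 14 on days 1, 2 and 3 alone, and positive Psmd genes 12, 8 and 4 of 13. Without day 2 there were 8 of 14 and 8 of 13. With the mean over all probe sets of a gene they were 12 of 14 and 9 of 13, and after quantile normalization 13 of 14 and 7 of 13.

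The inducible gene Psmb8 replaces Psmb5 in the immunoproteasome and had the largest positive estimate of the immunoproteasome genes. Its signal ran from 131.4 over a median of 385.4 to 2298.2 on the limbal arrays, and from 44.8 over a median of 339.1 to 898.0 on the corneal arrays. The groups overlapped over most of their range, and the limbal arrays of mice 3 and 7 were the only ones above every corneal array. The difference was 0.78 ± 0.52 (SE, n = 8 mice; limma adjusted p = 0.86), with an interval from -0.27 to 1.84. It was 1.86, 3.92 and 2.76 in mice 2, 3 and 4, and -2.16 and -1.36 in mice 5 and 6, and its mean was 0.65, 1.51 and 0.15 on scan days 1, 2 and 3. The estimate was 1.204 without mouse 5, 0.34 without mouse 3, 0.50 without mouse 4 and 0.35 without scan day 2. The other probe set of Psmb8 differed by 0.67 and did not pass.

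Immune cells express Psmb8 strongly, and markers of immune cells were higher in many limbal captures. Of 16 tested immune markers 15 had a positive estimate and 2 were called (H2-Aa and Ctss). No tested marker was at 0 on any array, and their summed signal ran from 11642 to 126084 on limbal arrays and from 6320 to 18785 on corneal arrays. Their median difference was 1.88 and 1.84 in mice 6 and 7, where Psmb8 differed by -1.36 and 0.78, and 0.86 and -0.55 in mice 3 and 4, where Psmb8 differed by 3.92 and 2.76. In mice 1, 2, 5 and 8 the immune marker medians were 1.23, 0.56, -0.05 and -0.14, and Psmb8 differed by -0.55, 1.86, -2.16 and 1.02. The part of immune cells in the Psmb8 values was not tested.

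Psmb9 replaces Psmb6, and had signals from 122.7 over 892.4 to 1245.0 on limbal arrays and from 158.5 over 856.9 to 1308.2 on corneal arrays (lowest, median, highest). The groups overlapped almost completely, and the limbal value was higher in 3 of 8 mice. The difference was -0.16 ± 0.43 and its scan day means were -0.15, -0.12 and -0.19, the steadiest of the 4 immunoproteasome genes over the days. Within day 2 it nonetheless ran from -1.88 in mouse 4 to 2.12 in mouse 3. Leaving out mouse 5 gave -0.092, leaving out mouse 8 -0.068, leaving out mouse 3 -0.48 and leaving out mouse 4 0.087.

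Psmb10 replaces Psmb7, and had signals from 45.3 over 672.7 to 1824.0 on limbal arrays and from 100.5 over 946.2 to 1972.2 on corneal arrays. Each group held 1 array far below its others, that of mouse 4 among the limbal and that of mouse 1 among the corneal ones. The difference was -0.31 ± 0.47, with day means of 1.74, -1.70 and -0.28. Its difference was 2.75 in mouse 1 and -3.36 in mouse 4. The estimate was -0.74 without mouse 1, 0.13 without mouse 4, -0.12 without mouse 5 and 0.53 without scan day 2.

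Psme1, a subunit of the activator that opens the core particle, had signals from 206.4 over 1014.3 to 1504.8 on limbal arrays and from 366.4 over 808.1 to 1246.0 on corneal arrays. The limbal value was higher in mice 1 to 5 and lower in mice 6 to 8. The difference was 0.10 ± 0.40 over all mice and -0.68 ± 0.38 on scan day 3 alone, where limma's adjusted p was 0.65. It was 0.061 without mouse 5 and -0.14 without scan day 2, and leaving out any 1 mouse gave -0.017 to 0.24. The split between these sets of mice followed the scan days, and its cause was not tested.

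The constitutive catalytic genes had negative estimates, and so did the inducible genes Psmb9 and Psmb10. Psmb5, which carries the chymotrypsin-like site and is replaced by Psmb8, had signals from 113.0 over 1292.4 to 4954.1 on limbal arrays and from 151.1 over 1666.6 to 5263.4 on corneal arrays. Its lowest limbal array was that of mouse 1 and its lowest corneal array that of mouse 5, and the 6 arrays of day 3 were the highest of their groups. The difference was -0.25 ± 0.43, reaching -2.72 in mouse 1 and 1.96 in mouse 5, while the other mice lay from -0.86 to 0.78. Without mouse 5 it came to -0.56, without mouse 1 to 0.11, without mouse 4 to -0.40, without mouse 3 to -0.16 and without scan day 2 to -0.77. Psmb5 and Psmb8 had opposite signs in mice 3, 5, 7 and 8 and the same sign in mice 1, 2, 4 and 6, and no test of this was made.

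Psmb6, which carries the caspase-like site, had signals from 69.2 over 1925.2 to 7680.9 on limbal arrays and from 49.5 over 2370.9 to 9592.3 on corneal arrays. Again the arrays of day 3 were highest, and the limbal and corneal values of mice 1, 2, 7 and 8 lay within 0.23 log2 units of each other. The difference was -0.48 ± 0.43, with -2.63 in mouse 4 and 1.59 in mouse 5. It became -0.78 when mouse 5 was left out, -0.29 for mouse 3, -0.17 for mouse 4 and -0.20 for scan day 2.

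Psmb7, which carries the trypsin-like site, had the most regular direction of the catalytic genes. Its signal ran from 40.9 over 168.7 to 717.3 on limbal arrays and from 50.7 over 349.2 to 583.2 on corneal arrays. The limbal value was the lower one in 7 of 8 mice, mouse 5 being the exception with 1.24, although the groups overlapped. The difference was -0.53 ± 0.44 (limma adjusted p = 0.90), with -0.25, -0.33 and -0.91 on scan days 1, 2 and 3. Being lower in at least 7 of 8 mice was seen for 2 of the 39 proteasome genes, Psmb7 and Psma2, and for 4.38% of all genes. Psma2, an alpha ring subunit, differed by -0.43 ± 0.43, with 2.56 in mouse 2.

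**Figure D2:**
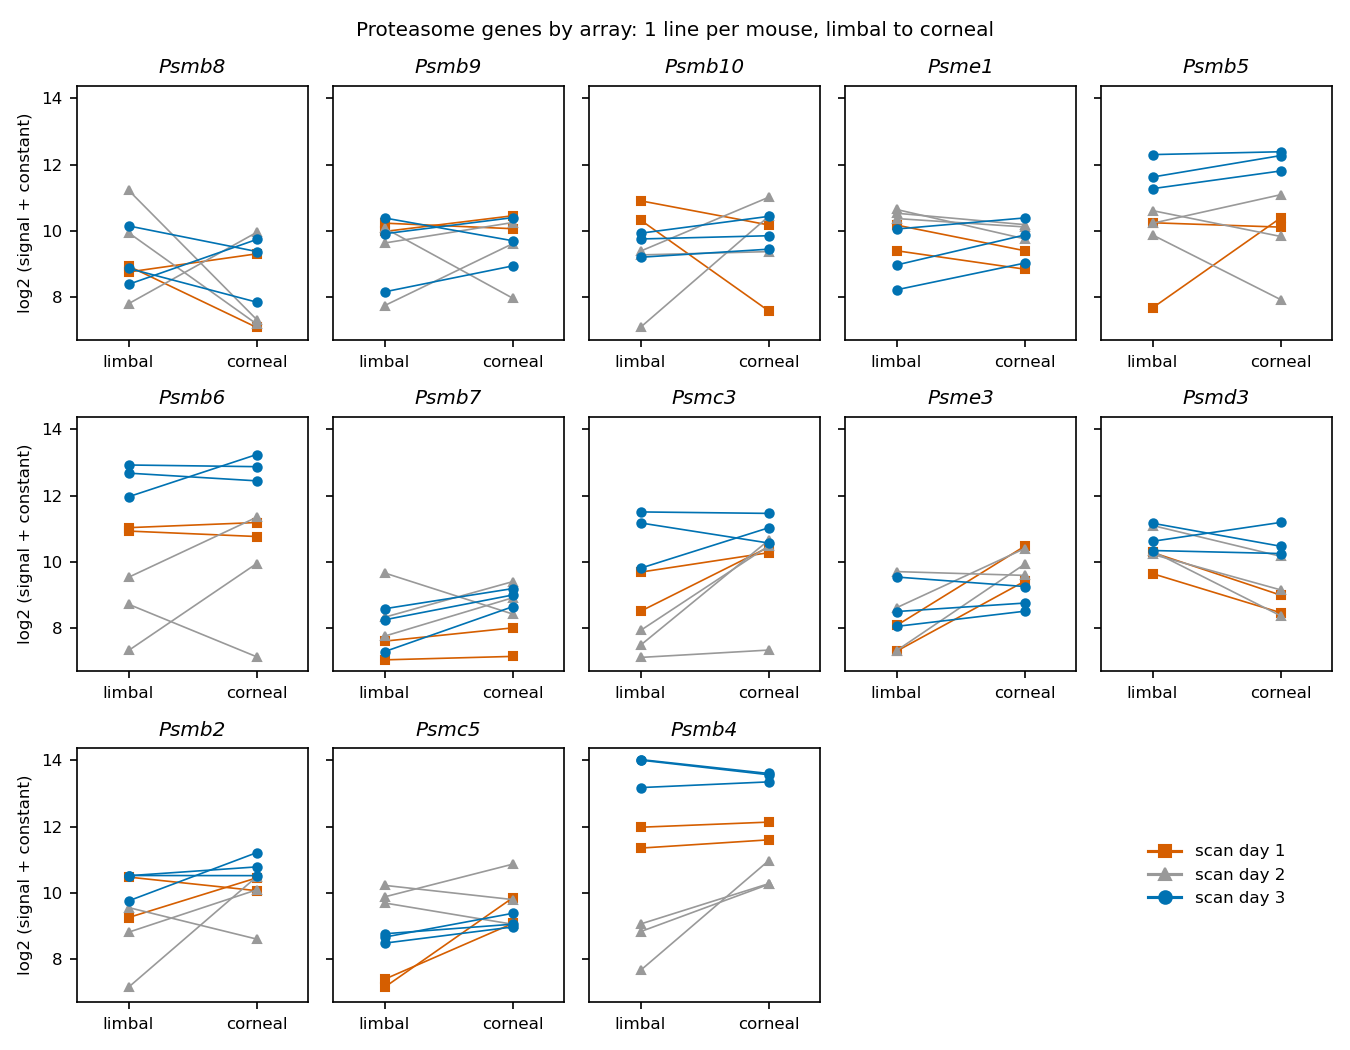
log2(signal + 89.4) of 13 proteasome genes (vertical axis) on the limbal and corneal array of each mouse, 1 line per mouse, with colour and marker for the scan day. The lines of scan day 3 are flatter than those of scan day 2 in most panels, as for Psmb5. Those of scan day 2 cross in most panels.

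Among the ATPases of the 19S cap, which unfold substrates and thread them into the core, Psmc3 had the smallest p of all proteasome genes. Its signal ran from 47.7 over 501.7 to 2813.6 on limbal arrays and from 70.6 over 1378.1 to 2725.0 on corneal arrays. On 7 corneal arrays it was at 1145.3 or above, which 2 limbal arrays reached, those of mice 7 and 8. The eighth corneal array, that of mouse 5, was at 70.6. The difference was -1.13 ± 0.43, or 0.46-fold (limma unadjusted p = 0.013, adjusted p = 0.62), lower in 6 of 8 mice. It was -3.18 and -2.56 in mice 3 and 4 but 0.61 and 0.04 in mice 7 and 8, and its day means were -1.27, -1.99 and -0.19. Without scan day 2 the estimate was -0.62.

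Psmc5, another ATPase of the ring, had signals from 51.2 over 327.5 to 1102.4 on limbal arrays and from 408.2 over 510.1 to 1769.6 on corneal arrays. The 2 lowest limbal arrays were those of mice 1 and 2. The difference was -0.73 ± 0.43 (adjusted p = 0.83), with day means of -2.20, 0.03 and -0.50. The estimate was -0.44 without mouse 2 and -1.18 without scan day 2. The 4 other ATPase genes were between -0.41 for Psmc1 and 0.30 for Psmc4.

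The lid subunit gene Psmd3 had the largest positive estimate of all 39. Its signal ran from 705.6 over 1192.4 to 2199.9 on limbal arrays and from 238.8 over 765.0 to 2240.2 on corneal arrays. Every limbal array was above 4 of the corneal ones, those of mice 1, 2, 4 and 5. The limbal value was higher in 7 of 8 mice, mouse 6 being the exception at -0.57. The difference was 0.83 ± 0.39, or 1.78-fold (limma unadjusted p = 0.042, adjusted p = 0.77). It was 1.24 and 1.32 on scan days 1 and 2 and 0.07 on day 3, and the estimate was 0.54 without scan day 2. Psmd3 was the only one of the 39 that was higher in at least 7 mice, against 4.37% of all genes.

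Next in order of p among the non-ATPase genes, but with adjusted p of 0.89 to 0.92, were the lid subunit gene Psmd12 at 0.51 ± 0.41 and the scaffold subunit genes Psmd1 and Psmd2 at 0.53 ± 0.42 and 0.43 ± 0.41. The estimate of Psmd12 was 0.22 without mouse 1, where it differed by 2.56. That of Psmd2 was 0.10 without mouse 5 and 0.12 without scan day 2. For Psmd1 the 8 limbal arrays were close together, from 577.6 to 1243.3, while the corneal ones ran from 73.3 to 1387.0. Its positive estimate came from mice 4 and 5, with 2.85 and 1.78, and on day 3 the difference was -0.02. The estimate of Psmd1 was 0.20 without mouse 4, 0.35 without mouse 5 and -0.0046 without scan day 2. Psmd14, which encodes the subunit that removes ubiquitin from substrates, differed by -0.22 ± 0.43 over all mice and by -0.66 ± 0.29 on day 3 alone, where it was lower in 3 of 3 mice (limma adjusted p = 0.57).

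Psme3, which encodes a nuclear activator of the core particle, had the most negative estimate. Its signal ran from 66.9 over 224.1 to 740.4 on limbal arrays and from 272.1 over 632.9 to 1325.2 on corneal arrays. The 4 arrays at or below 178.5 were all limbal, those of mice 1, 2, 4 and 8. The difference was -1.16 ± 0.44, or 0.45-fold (limma unadjusted p = 0.014, adjusted p = 0.63), lower in 6 of 8 mice. The day means were -2.26, -1.43 and -0.14, and the second tested probe set of Psme3 differed by -0.50. Psme4, an activator with a role in the testis and in DNA repair, differed by -0.06 ± 0.39.

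In the beta ring, Psmb2 had signals from 51.3 over 715.0 to 1376.1 on limbal arrays and from 296.6 over 1322.0 to 2278.8 on corneal arrays. The difference was -0.77 ± 0.43, with -3.34 in mouse 5 and 0.95 in mouse 3, and -0.57 on day 3. It was -0.41 without mouse 5 and -0.50 without scan day 2. Psmb4 had signals from 111.0 over 3229.5 to 16597.4 on limbal arrays and from 1128.7 over 3705.8 to 12371.5 on corneal arrays. The lowest limbal arrays of Psmb4 were all 3 from day 2. The difference was -0.71 ± 0.44, with -1.99 on day 2 and 0.23 on day 3, and the other tested probe set of Psmb4 differed by 0.02. The estimate was -0.34 without mouse 3 and 0.057 without scan day 2.

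In the alpha ring, Psma4 differed by -0.67 ± 0.41, Psma5 by -0.59 ± 0.50 and Psma1 by -0.43 ± 0.41. Psma5 was at 140.5 and 111.6 on the limbal arrays of mice 3 and 4, against 2506.9 and 2582.0 on their corneal arrays. In the other mice its difference was between -0.63 and 1.38, and its estimate was -0.18 without mouse 3, -0.15 without mouse 4 and 0.22 without scan day 2. The estimate of Psma4 was -0.39 without mouse 4 and -0.27 without scan day 2, and that of Psma1 was -0.69 without mouse 5, -0.27 without mouse 1, -0.23 without mouse 6 and -0.65 without scan day 2. The remaining alpha genes, Psma3, Psma6 and Psma7, were between -0.26 and -0.01.

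Genes with several probe sets often had both signs. Of the proteasome genes 19 had more than 1 tested probe set, and in 5 of these all had 1 sign. Psmd11 had 8 tested probe sets with differences between -0.63 and 0.66, and Psmc2 had 3 between -0.33 and 0.71. All 73 tested probe sets of the proteasome genes missed the adjusted threshold, beside 0.0851% called over all probe sets, and 3 had an unadjusted p under 0.05, beside 6.46% of all probe sets.

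The 3 proteasome genes that did not pass the filter on low values were Psma8, Psmb11 and Psmd7. Psma8 and Psmb11 encode subunits known from testis and thymus. Psma8 had signals of 33.9 to 283.3 on limbal and 29.8 to 226.1 on corneal arrays. Psmb11 ran from 20.4 to 1315.8 on limbal and from 26.2 to 695.4 on corneal arrays, with mouse 4 the highest in both groups. Psmd7, a lid subunit, had 3 probe sets, the brightest with signals of 13.2 to 739.9 on limbal and 41.7 to 1070.5 on corneal arrays. Of the 2 interacting proteins, the meiotic recombination gene Psmc3ip differed by -0.68 ± 0.41 and Psme3ip1 by 0.48 ± 0.43. Without mouse 5 Psme3ip1 was at 0.78, without mouse 2 at 0.30 and without mouse 4 at 0.31, and Psmc3ip was at -0.092 without scan day 2.

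Seen by mouse, the share of proteasome genes that were lower in the limbal array varied in both directions. In mouse 6, 32 of the 39 (82.1%) were lower in the limbal array, beside 47.6% of all genes, with a median of -0.57. In mice 3 and 4, 26 and 27 were lower, with medians of -0.68 and -1.02, beside 52.8% and 52.5% of all genes. In mouse 5, 27 were higher, with a median of 0.61, and in mice 1 and 2, 23 and 25 were higher, with medians of 0.12 and 0.51. Mice 7 and 8 were nearly balanced, with 20 and 17 lower and medians of -0.07 and 0.00.

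In several mice the proteasome list had the sign of the epithelial markers. The median of the 11 tested epithelial markers was -1.70, -1.45 and -1.41 in mice 3, 4 and 6 and 2.31 in mouse 5, where the corneal array was the one with little Krt12. In mice 1, 2, 7 and 8 it was 0.87, 0.11, -0.29 and -0.67. Their summed signal ran from 111013 to 427068 on limbal and from 5700 to 652941 on corneal arrays, and none was at 0. The markers of stroma were higher in the limbal array of mouse 6 in 13 of 13, with a median of 4.14, the largest of any mouse. In mice 1, 2 and 7 their median was 1.74, 2.71 and 2.57, where the proteasome medians were 0.12, 0.51 and -0.07. In mice 3, 4, 5 and 8 it was 1.43, 0.83, 0.20 and -0.39. Over all mice all 13 stroma markers had positive estimates. Their summed signal ran from 7667 to 298365 on limbal and from 2942 to 33072 on corneal arrays, with none at 0. The part of stromal, immune or epithelial content in the proteasome values was not tested.

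**Figure D3:**
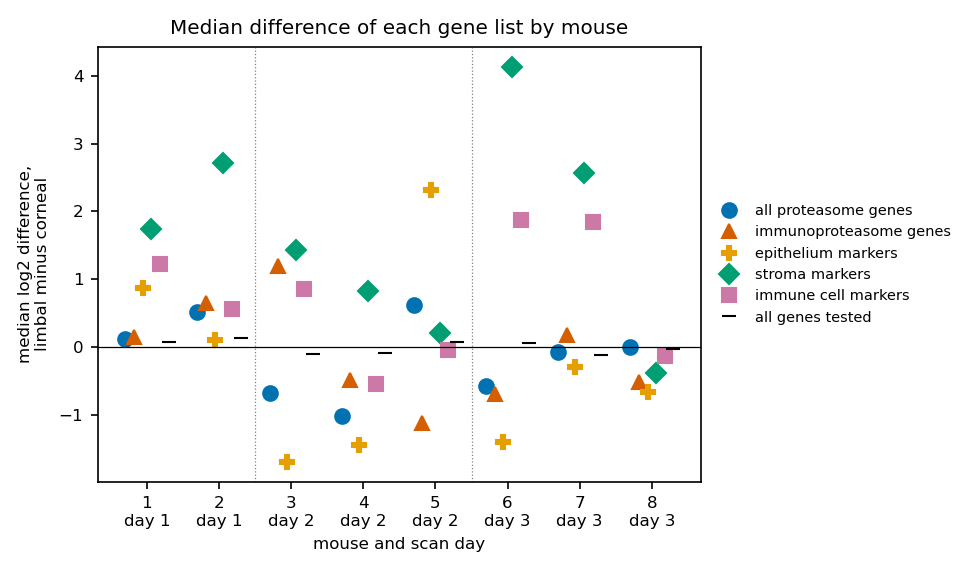
Median log2 difference, limbal minus corneal (vertical axis), of each gene list in each of the 8 mice, with the scan day under the mouse number. Proteasome genes lie lowest in mouse 4 at -1.02 and highest in mouse 5 at 0.61, while all genes tested stay near 0 in every mouse.

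The immunoproteasome genes did not follow the rest in every mouse. Their median difference was -0.03, beside -0.19 for the other 35 proteasome genes. For mouse 3 the 4 genes had a median of 1.19 and the 35 others -0.93, while mouse 5 had -1.13 for the 4 and 0.67 for the 35. Mice 7 and 8 had smaller medians of opposite sign, at 0.18 and -0.51 for the 4 and -0.07 and 0.03 for the 35. The signs were the same in mice 1, 2, 4 and 6, and no test of the difference between these sets was made.

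The sets also differed in how far they moved between scan days. The other proteasome genes had a higher mean on day 3 than on day 2 in 31 of 35 cases, with a median log2 difference of 1.89 between the days. For the 4 immunoproteasome genes that median was 0.25, with 3 of 4 higher on day 3, and for all genes it was 0.06. For the epithelial markers it was 2.08, with 11 of 11 higher on day 3. The days hold different mice, so that day and animal cannot be told apart here. Bright signals were higher on day 3 over all probe sets. The 99th percentile of an array was 14916 to 18165 there and 2443 to 4907.5 on day 2. On limbal arrays of day 3 the median log2 level was 10.89 to 11.57 for the 35 and 8.53 to 10.09 for the 4. On day 2 it was 9.05 to 9.87 and 8.83 to 10.22. The part of brightness in these shifts was not tested.

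The 2 captures of a mouse differed least on scan day 3, for the proteasome genes and for all genes. The median absolute difference between the captures of a mouse was 0.67, 1.19 and 0.38 on scan days 1, 2 and 3 for the 39 genes, beside 0.86, 1.06 and 0.48 for all genes. In mouse 8, whose 2 arrays correlated at 0.94, it was 0.18, beside 0.31 for all genes. There 1 of the 39 differed by more than 1 log2 unit, Psmb8 at 1.02, beside 6.46% of all genes. Stroma and immune markers were also little separated in this pair, with medians of -0.39 and -0.14. The 11 epithelial markers had a median of -0.67 in mouse 8, and 4 of them differed by more than 1 log2 unit. Krt15, one of the 11, differed by 0.04 there, against 4.25 and 6.38 in mice 6 and 7. Fitted on day 3 alone, limma called 0 of the 39 and 0 of all genes, with 2 and 1363 at an unadjusted p under 0.05. In that fit 29 of the 39 were lower in limbal captures, beside 52.1% of all genes, with a median of -0.19. By mouse, 32, 20 and 17 of the 39 were lower in mice 6, 7 and 8. The fitted interval lay within 1 log2 unit of 0 in 15 of the 39 (38.5%), beside 15.6% of all genes. Psmc1 had the smallest p there, at -0.96 ± 0.41 (adjusted p = 0.56), with -1.70 and -1.25 in mice 6 and 7 and 0.07 in mouse 8.

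**Figure D4:**
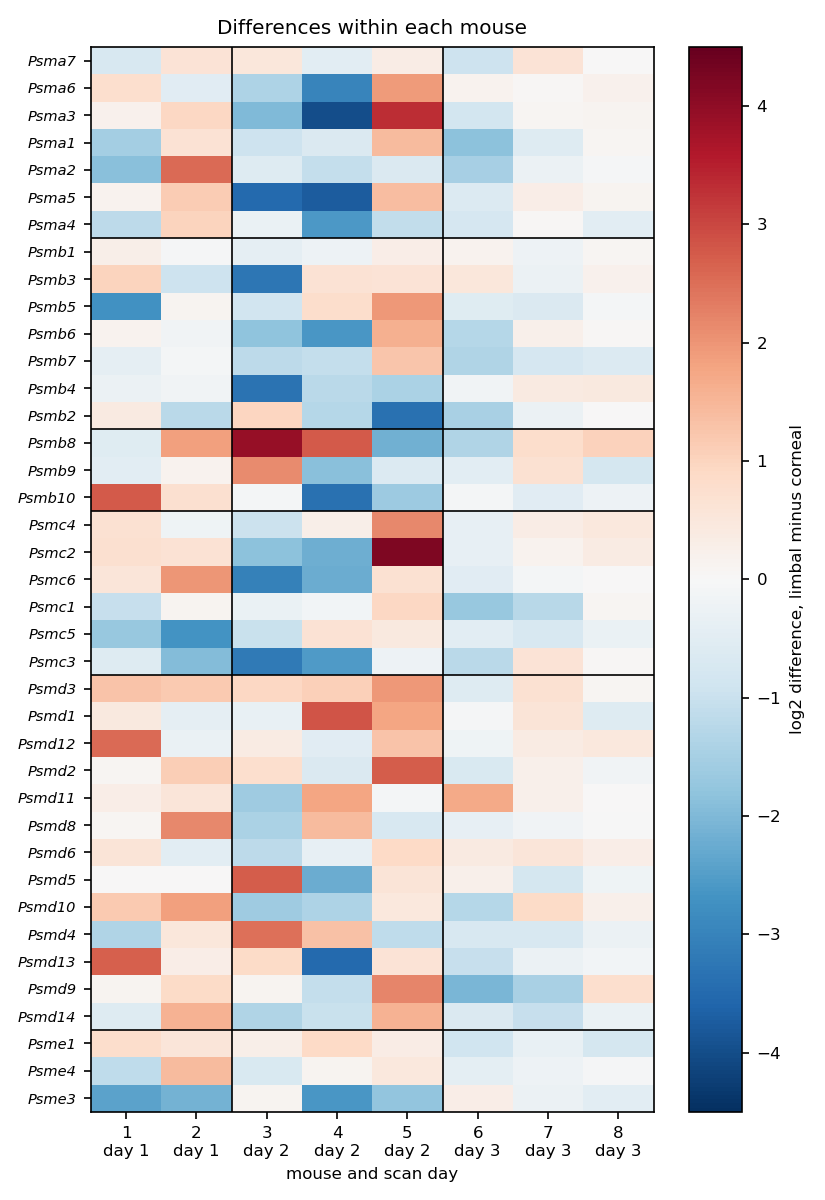
Limbal minus corneal log2 difference (colour) of the 39 proteasome genes (rows, in the order and groups of the plot of differences by subcomplex) in each mouse (columns, with scan day). The columns of mice 3, 4 and 5 hold the strongest colours in both directions, up to 4.19 for Psmc2 in mouse 5, and the column of mouse 8 is the palest.

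Genes that regulate or feed the proteasome gave no call either. Of 25 listed chaperones, ubiquitin genes and regulators, 19 were tested, 0 were called by limma and 0 had an unadjusted p under 0.05, and 12 were lower, with a median of -0.10. The smallest p values were those of Akirin2, which encodes a factor for nuclear import of proteasomes, at 0.74 ± 0.41, and of the assembly chaperone gene Psmg4, at -0.83 ± 0.45 and lower in 7 of 8 mice. The adjusted p was 0.81 for both. Without mouse 5 Psmg4 was at -0.48, and Akirin2 was at 0.48 without mouse 2 and at 0.44 without scan day 2.

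Genes of antigen presentation and of the interferon response, with which the immunoproteasome is induced, likewise had 0 of 19 tested members called by limma, of 23 listed. At an unadjusted p under 0.05 there was 1, Nlrc5, an activator of class I antigen presentation genes, at 0.94 ± 0.45 and higher in 6 of 8 mice (adjusted p = 0.77). Rsad2, an interferon-induced antiviral gene, followed at 0.85 ± 0.45. The median of the list was 0.05, with 11 members higher and 8 lower. Tap1, the neighbour of Psmb8 and Psmb9, differed by -0.16 ± 0.44.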

How the data were processed

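The authors deposited a linear intensity for every probe set of each array. Per the file's values, the mean of each array without its top and bottom 2% is 500.0, so arrays had been scaled. The summary algorithm is not given in the sources used here. Of 45101 probe sets, 64 controls were left out. Values were taken as log2(signal + 89.4), where 89.4 is the 25th percentile of the deposited values, and 27022 probe sets with a mean above the 40th percentile were tested. The fit, by limma 3.58.1 under R 4.3.3, had a term for each mouse and a variance trend. P-values were adjusted by Benjamini-Hochberg over these probe sets, at a threshold of 0.05. A gene is its brightest tested probe set with 1 symbol. The 16 arrays limit the precision.

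Both captures of a number come from the same mouse. Deviations of the 2 captures of a mouse correlated above 0.1 in 7 of 8 mice (median 0.30). The fit was tested on simulated data with 50 changed probe sets. It called 2% of them at a change of 1 log2 unit, 58% at 2, 90% at 3 and 96% at 4. Genes given in full are the immunoproteasome and catalytic genes and those of smallest p. The genes, lists and tests were chosen with earlier results of these data known. Alternatives were another filter, constant, normalization, centring, array weights, probe set means, no block, each scan day, and each mouse left out.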

Additional observations from a re-analysis of the deposited data

Results flagged for a closer look

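Of 42 groups of 8 arrays checked, 4 held an array whose gap to the nearest other exceeded Dixon's 95% critical value, which chance gives in about 1 of 20. Psmb10 was at 7.07 (log2) on the limbal array of mouse 4. Psmc3 was at 7.32 on the corneal array of mouse 5, the array with little Krt12. On the corneal arrays of mouse 3, Psmb2 was at 8.59, lower than all others, and Psmc5 at 10.86, higher than all others.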

How the results depend on the processing

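The number of proteasome genes called by limma was 0 under every alternative run, and the smallest adjusted p was 0.47, for Psmc3 without mouse 5. The number of genes called over all genes, 18, was 8 with the filter at the 60th percentile, 11 with a constant of 16, 0 after quantile normalization, 83 with array weights, 2 with the mean of all probe sets of a gene, and 73, 0 and 0 on scan days 1, 2 and 3 alone. Leaving out 1 mouse gave 0 to 45. Without the replicate block, which drops the pairing by mouse, 0 genes and 0 proteasome genes were called, with 431 and 1 at an unadjusted p under 0.05. The medians of the proteasome genes, the immunoproteasome genes and the others moved by less than the spread between mice. That spread is wide, with an SD of mouse medians of 0.58, 0.76 and 0.60, so a change of sign stays within it. The proteasome median ran from -0.31 without mouse 5 to 0.11 on day 1 alone. The immunoproteasome median ran from -0.27 with array weights to 0.66 on day 1 alone.

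Estimates that changed sign had not passed the test in either case, and the cause was not tested. With array weights Psme1 was -0.36. On day 1 alone Psmb10 was 1.74, Psmb6 0.0048, Psma5 0.64 and Psmc3ip 0.15. On day 2 alone Psmb5 was 0.63 and Psmc5 0.028. On day 3 alone Psme1 was -0.68, Psmb4 0.23, Psmd1 -0.022, Psmd2 -0.21 and Akirin2 -0.12. Without day 2 Psmb10 was 0.53, Psme1 -0.14, Psmb4 0.057, Psmd1 -0.0046 and Psma5 0.22. Leaving out 1 mouse gave -0.017 to 0.24 for Psme1, -0.56 to 0.11 for Psmb5, -0.48 to 0.087 for Psmb9 and -0.74 to 0.13 for Psmb10.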
